A study of Canis lupus familiaris with 16 samples.

Results

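The 10 genes described here encode receptor tyrosine kinases of the FGF, EGF and HGF families, the TAM receptor *AXL*, and 3 of their ligands. They were taken by name from the 41818 genes in the count table: the receptors *FGFR1*, *FGFR2*, *FGFR3*, *EGFR*, *ERBB2*, *MET* and *AXL*, and the ligands *FGF2*, *FGF7* and *HGF*. RNA came from archived, formalin-fixed, paraffin-embedded soft tissue sarcomas of dogs of several breeds, aged 2 to 14 years. None of the 16 tumors was normal tissue, so a level can be compared between tumor types but not with healthy dermis, nerve or vessel. By the molecular identity in the labels the tumors fell into 3 types, with 4 fibrosarcomas (FS), 6 tumors of the peripheral nerve sheath (PNST) and 6 of the perivascular wall (PWT). The study set that identity partly from expression, and it moved 2 tumors away from their histological diagnosis (S1-10 from PWT to PNST, S2-08 from FS to PWT), so the groups are not fully independent of the measured RNA. S1-04 and S1-05, both PNST, carry identical labels and may come from the same dog.

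A receptor tyrosine kinase binds a growth factor outside the cell, pairs with another receptor and phosphorylates its own tail, which recruits adaptors that switch on the RAS-MAPK, PI3K and PLCγ routes. FGF receptors need heparan sulfate beside their ligand, and *FGF2* and *FGF7* are ligands typically made by mesenchymal cells. *ERBB2* has no ligand of its own and signals by pairing with other receptors of the EGF family. *MET* is the receptor for HGF, and *AXL* is activated by GAS6. In connective tissue tumors these receptors are of interest because kinase inhibitors against several of them exist.

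Between 507728 and 4311876 counts fell on genes per tumor (22.9% to 30.6% of the listed reads), with a median of 2023560 in FS, 2984700 in PNST and 1611100 in PWT. Levels are given as CPM, the count scaled to a common library total with TMM, so 1 read was worth between 0.281 and 1.81 CPM, and at these depths several of the genes rest on few reads. The names of 9 tumors begin with S1 and those of 7 with S2, which may mark the sequencing groups. The S1 set held 3 FS, 5 PNST and 1 PWT, so prefix and type overlap strongly. The summed level of 15 keratinocyte markers was 865 to 1408 CPM in 5 tumors (S1-02 and S1-12 of FS, S1-04 and S1-05 of PNST, S2-03 of PWT) and 23.4 to 111 CPM in the other 11. Of 10 Schwann cell markers only 4 passed the filter on low counts and 0 were called for PNST. Of all 15408 genes tested 0 were called there, so that count could not have come out otherwise. Of 11 pericyte and smooth muscle markers 0 were called higher in PWT (1.41% of all genes) and 3 higher in FS (5.78% of all genes). With so few calls for PNST and PWT over all genes, these counts do not test the 2 names, which rest on the study's labels. Transcript lengths were not used here, so levels are compared between tumors and not between genes.

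**Figure D1:**
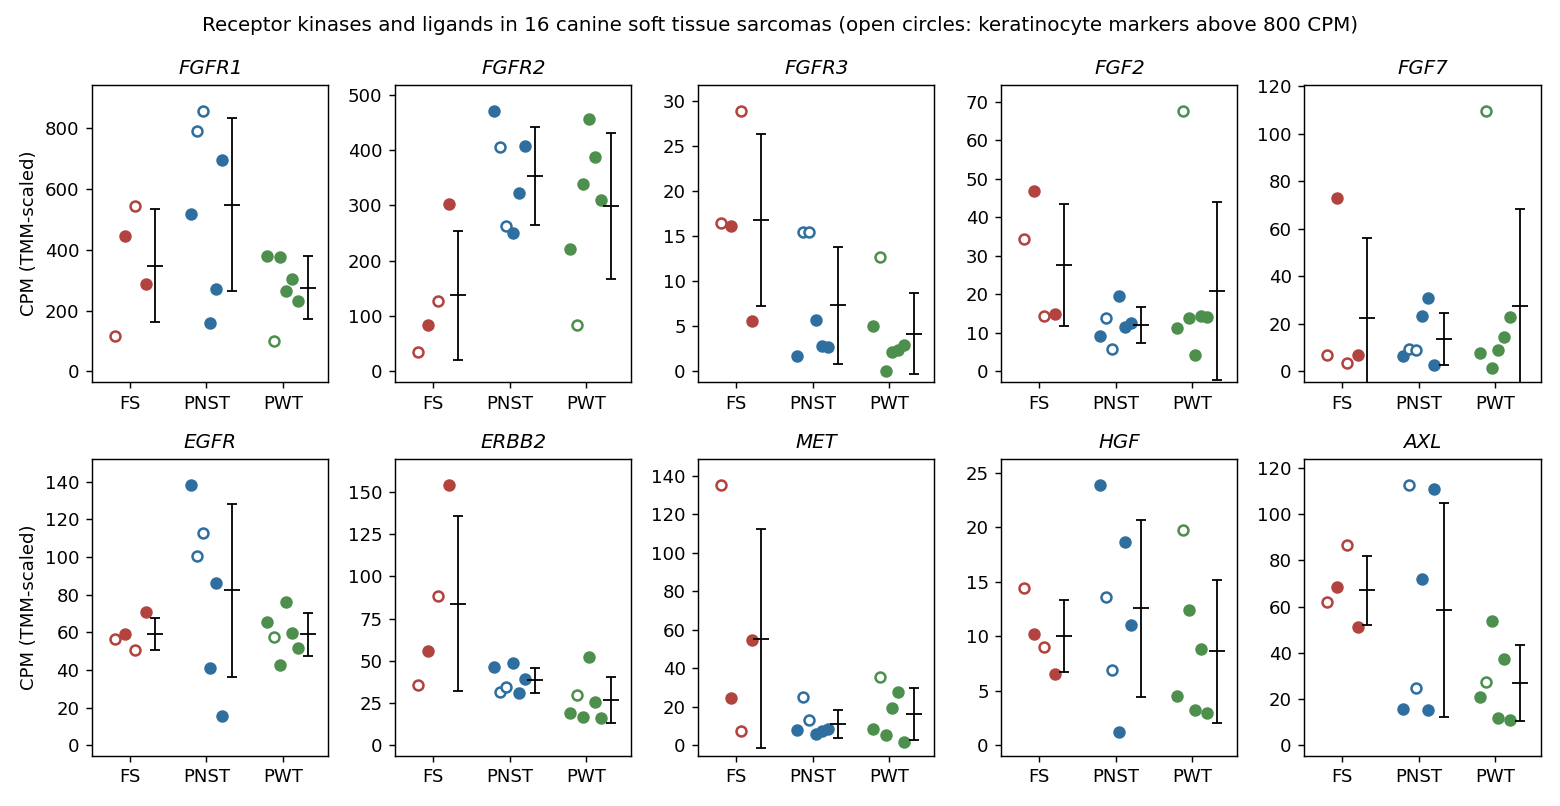
CPM (TMM-scaled) of the 10 genes in each tumor (points), by tumor type, with the mean and SD (black, n = 4 FS, 6 PNST, 6 PWT; SD bars that would pass below 0 are cut off at the panel edge). Open circles are the 5 tumors with high keratinocyte markers. *ERBB2* reaches 154 CPM in an FS, *MET* 135 CPM in another FS, and no gene separates a tumor type completely from both others.

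A gene was called when its adjusted p was under 0.05 and its log2 fold change beyond 1 in either direction (edgeR's quasi-likelihood test, adjusted over 15408 genes). Of the 10 genes, 2 were called in FS against PNST and PWT together, and both were higher in FS: *ERBB2* and *MET*. Among all genes tested 9.46% were called in that comparison (5.78% higher and 3.68% lower in FS; DESeq2 called 3 of the 10 genes and 12% of all), so 2 of 10 does not set these genes apart as a group. Their median log2 fold change was 0.40, against 0.00 over all genes. For PNST against both others 0 of the 10 genes were called, as were 0% of all genes (*FGFR1* and *MET* had an unadjusted p under 0.05, as had 2415 of all genes, and DESeq2 called 0 of the 10 genes and 1.79% of all genes). For PWT against both others 0 of the 10 were called while 2.12% of all genes were (1.41% higher and 0.714% lower). An unadjusted p under 0.05 was found for 2 of the 10 (*ERBB2* and *AXL*) and for 3449 of all 15408 genes. DESeq2 called 0 of the 10 and 5.84% of all genes. In the pairwise comparisons 1 gene was called for FS against PNST (*MET*; 7.13% of all genes, 4.15% higher in FS) and 1 for FS against PWT (*ERBB2*; 11.2% of all genes, 6.15% higher in FS). For PNST against PWT 0 were called (0.169% of all genes). *FGFR1* and *AXL* had an unadjusted p under 0.05 there, as had 3013 of all genes, and DESeq2 called 0 of the 10 and 4.02% of all. The median log2 fold change of the 10 genes was −0.60 in PWT and −0.08 over all genes. In no comparison did one of the 10 genes have groups that did not overlap, as 3.21%, 0.292% and 0.753% of all genes had for FS, PNST and PWT against both others, and 7.24%, 8.62% and 2.7% for FS against PNST, FS against PWT and PNST against PWT.

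**Figure D2:**
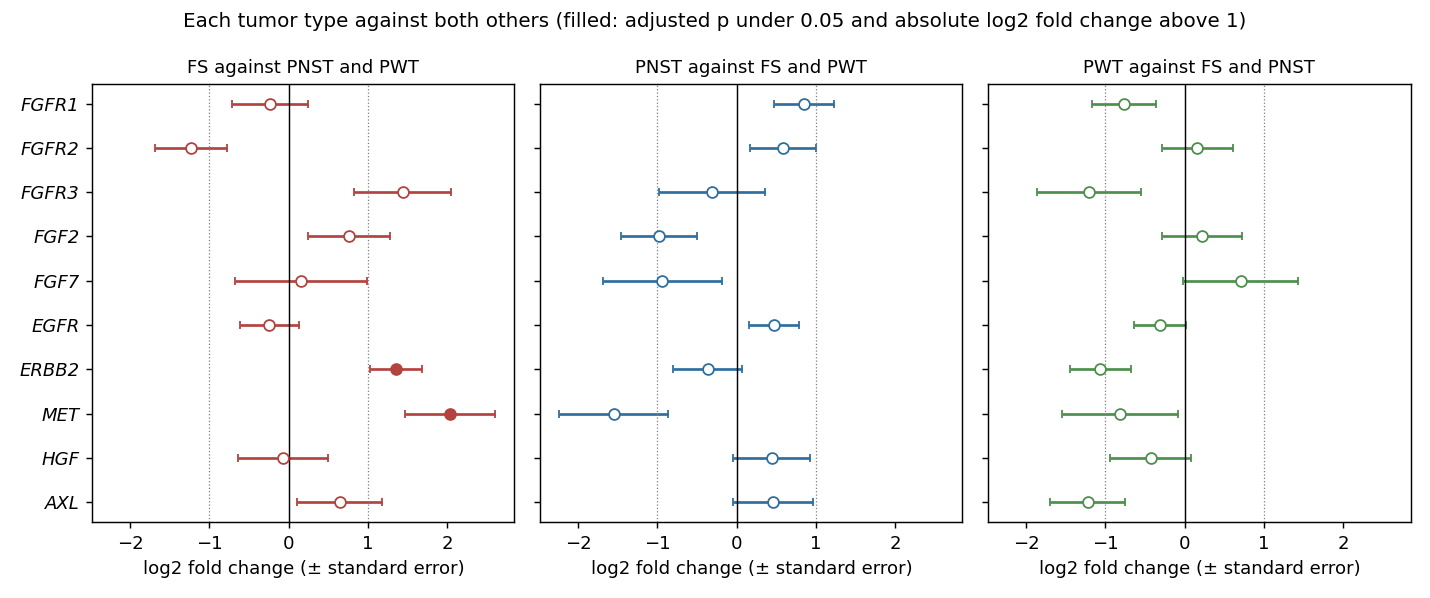
Log2 fold change with its standard error for each gene in the 3 comparisons of a tumor type against both others (edgeR). Filled points passed the call rule: *ERBB2* (1.36) and *MET* (2.04) in FS, and none in PNST or PWT.

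*ERBB2*, the ligandless EGF family receptor, was higher in FS. The 4 FS had 35.8 (S1-02), 56.1 (S1-11), 88.5 (S1-12) and 154 CPM (S2-06). The 6 PNST ran from 31.2 to 48.6 CPM with a median of 36.9, and the 6 PWT from 16.3 to 52.3 CPM with a median of 22.5. Thus 3 of 4 FS lay above all 12 other tumors, and S1-02 lay inside the PNST range. The level was highest on average in FS (83.6 ± 51.8 CPM, SD, n = 4), then PNST (38.5 ± 7.52, n = 6), then PWT (26.6 ± 13.7, n = 6). *ERBB2* was 2.56-fold higher in FS than in both other types (log2 fold change 1.36, SE 0.33, adjusted p = 0.0131) and 3.11-fold higher than in PWT alone (1.64, SE 0.38, adjusted p = 0.0100), or by histological diagnosis 1.73 with an adjusted p of 0.0515. Against PNST alone the log2 fold change of 1.13 (SE 0.37) missed the threshold with an adjusted p of 0.0696 in edgeR and passed it in DESeq2 (1.16, adjusted p = 0.0304; 10.3% of all genes called), and in edgeR without S1-02 (1.38, adjusted p = 0.0242) or S2-08 (1.13, adjusted p = 0.0461). PNST and PWT, the neighbours at the low end, did not differ past the threshold (0.51, 95% interval −0.16 to 1.18, adjusted p = 0.414). In bulk RNA, more cells of a kind and more RNA per cell cannot be told apart.

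The *ERBB2* call rested in large part on S2-06. Without it the log2 fold change in FS against both others was 0.86 (adjusted p = 0.126), and among the S1 tumors only it was 0.77 (adjusted p = 0.211). Leaving out any of the other 15 tumors kept the call, as did a term for the prefix (1.35, adjusted p = 0.0148) and the histological diagnosis as the group (1.32, adjusted p = 0.0394). The call was also kept without the 5 tumors with high keratinocyte markers (1.71, adjusted p = 0.0265). In the same comparison 3 of 11 pericyte and smooth muscle markers and 3 of 10 fibroblast markers were called higher in FS, as were 5.78% of all genes. Their sums were 651 to 1916, 403 to 905 and 412 to 769 CPM, and 17717 to 98945, 16601 to 36680 and 9551 to 22892 CPM, in FS, PNST and PWT. Their part in the FS results was not tested.

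*EGFR*, the founding member of the same family, was not called in any comparison. Its level was 50.5 to 70.6 CPM in FS (median 57.9) and 42.7 to 76.1 CPM in PWT (median 58.7). In PNST it ran from 15.5 CPM (S2-07) to 138 CPM (S1-03), with a median of 93.4. FS and PWT were therefore narrow and nearly level with each other (log2 fold change 0.02, 95% interval −0.77 to 0.81), and PNST held both the highest and the lowest tumor. The 3 comparisons of a type against both others gave log2 fold changes of −0.24, 0.47 and −0.32 for FS, PNST and PWT, with adjusted p from 0.470 to 0.742. The CPM of *ERBB2* over that of *EGFR* had a median of 1.35 in FS (0.634 to 2.18), 0.347 in PNST (0.306 to 2.54) and 0.410 in PWT (0.293 to 0.688). The highest ratio of all was that of S2-07, the PNST with the least *EGFR*.

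*MET*, the HGF receptor, had the largest fold change of the 10 genes in FS against both others. The FS had 135 (S1-02), 24.3 (S1-11), 7.22 (S1-12) and 54.8 CPM (S2-06). In PNST the range was 5.67 to 25.1 CPM (median 8.08), and in PWT it was 1.48 to 35.2 CPM (median 13.9). Only 2 of 4 FS lay above all other tumors, S1-11 lay inside both other ranges, and S1-12 lay below the PNST median. The S1-12 value stands on 4 reads (exact 95% interval 1.97 to 18.5 CPM), whereas the S1-02 value stands on 385 reads and came out at 134, 144 and 142 CPM in that tumor's 3 sequencing runs before TMM scaling. *MET* was 4.10-fold higher in FS than in both other types (log2 fold change 2.04, SE 0.57, adjusted p = 0.0273) and 5.08-fold higher than in PNST (2.34, SE 0.68, adjusted p = 0.0444), where it was the only one of the 10 genes called. Against PWT it was not called (1.77, SE 0.68, adjusted p = 0.0941) except without S1-12 (2.10, adjusted p = 0.0456). The order of the means was FS (55.4 ± 56.7 CPM, n = 4), PWT (16.2 ± 13.3, n = 6) and PNST (11.2 ± 7.26, n = 6), and PNST and PWT did not differ past the threshold (−0.57, 95% interval −1.83 to 0.68).

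S1-02 carried much of the *MET* difference. Without S1-02 the log2 fold change in FS against both others was 1.11 (adjusted p = 0.277), and without S2-06 it was 2.06 (adjusted p = 0.05002, just above the threshold). With a term for the keratinocyte marker level it was 1.71 (adjusted p = 0.0611), without the 5 tumors with high keratinocyte markers 2.02 (adjusted p = 0.0538), within S1 2.38 (adjusted p = 0.0684), and by histological diagnosis 1.88 (adjusted p = 0.102). The call against PNST was lost without S1-02 (1.42, adjusted p = 0.219), S1-03, S1-05, S1-09, S1-10, S2-06, S2-07, S2-08 or S2-09 (2.19 to 2.38, adjusted p from 0.0520 to 0.0934), with a term for the prefix (2.33, adjusted p = 0.0550) and within S1 (2.32, adjusted p = 0.122). S1-02 was also high in keratinocyte markers (1386 CPM, with 15 of 15 markers tested and 0 called between FS and the rest, beside 9.46% of all genes). It also had the highest sum of 10 macrophage markers, 1453 CPM against 209 to 671 CPM in the other 3 FS. The macrophage sum was 260 to 650 CPM in PNST and 214 to 837 CPM in PWT, and 1 of 10 markers was called higher in FS (5.78% of all genes). In all types the keratinocyte sum ranged from 75.5 to 1386 CPM in FS, 57.0 to 1408 in PNST and 23.4 to 1210 in PWT. In the 11 low tumors *KRT5*, *KRT15*, *KRT17* and *DSG3* were at or near 0. *CDH1* (69.7 CPM in S2-06) and *PKP1* (91.7 CPM in S1-03) each reached the level of the 5 high tumors in 1 of them. So did *DSC3* (52.8 CPM in S1-11) and *SFN* (19.9 CPM in S2-07). *SERPINB5* did so in S1-09 (75.8 CPM), S2-11 (25.9 CPM) and S1-07 (19.7 CPM). *MET* was 7.22 to 135 CPM (median 25.1) in the 5 tumors with high keratinocyte markers and 1.48 to 54.8 CPM (median 8.29) in the other 11. The part of the keratinocyte and macrophage transcripts in the *MET* result was otherwise not tested.

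*HGF*, the *MET* ligand, was not called in any comparison. Levels were 6.50 to 14.4 CPM in FS, 1.19 to 23.9 CPM in PNST and 2.96 to 19.8 CPM in PWT, with medians of 9.64, 12.3 and 6.69 CPM. All log2 fold changes lay between −0.43 and 0.54, with adjusted p of at least 0.609. The FS with the most *MET*, S1-02, also had the most *HGF* among FS (14.4 CPM), but the FS with the second most *MET*, S2-06, had the least (6.50 CPM).

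**Figure D3:**
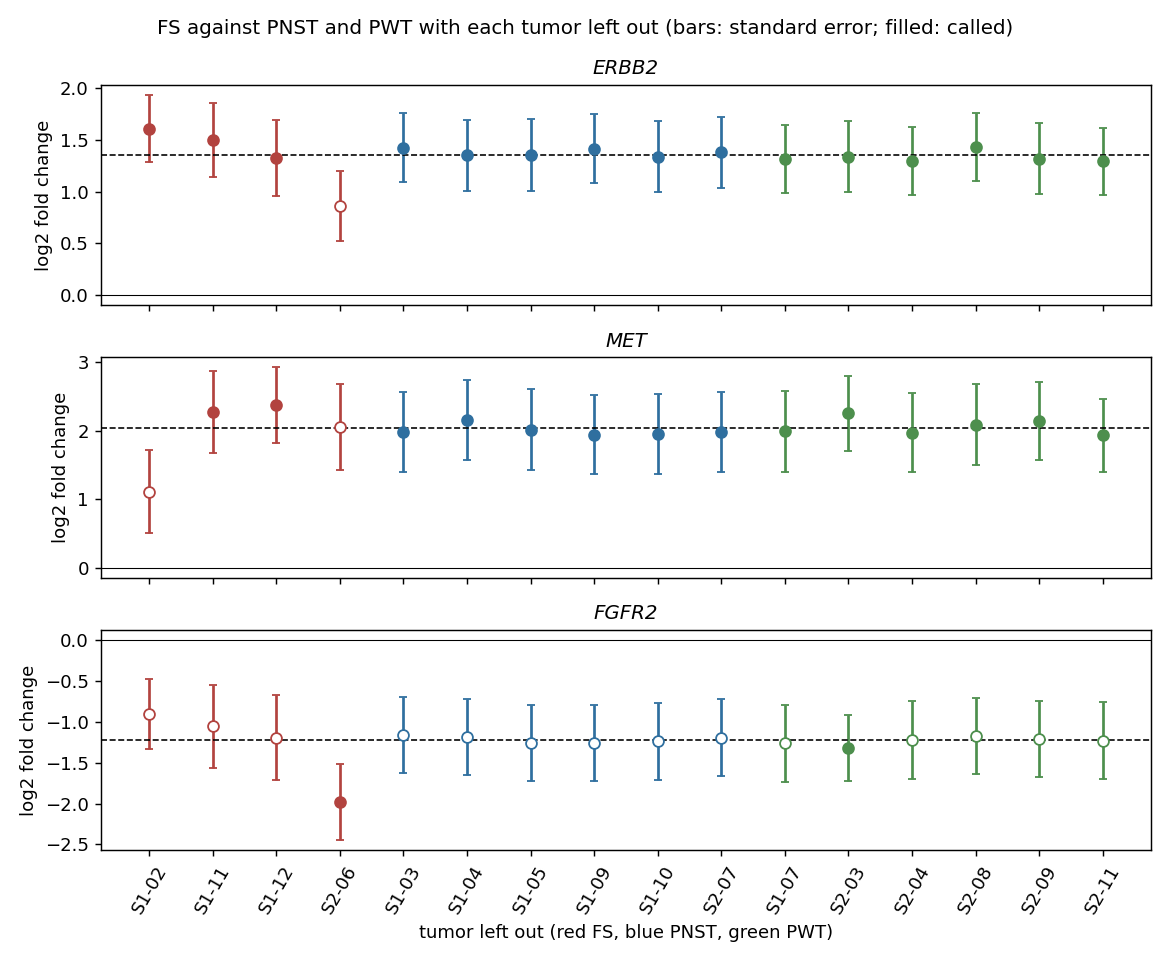
Log2 fold change (with SE) of *ERBB2*, *MET* and *FGFR2* in FS against PNST and PWT with each tumor left out in turn (edgeR; dashed line, all 16 tumors; filled points, called). *ERBB2* falls to 0.86 without S2-06, *MET* to 1.11 without S1-02, and *FGFR2* moves to −1.98 without S2-06.

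Among the FGF receptors, *FGFR2* had the lowest levels in FS without passing the call rule. The FS had 35.8 (S1-02), 84.7 (S1-11), 128 (S1-12) and 303 CPM (S2-06). PNST ran from 251 to 471 CPM (median 364) and PWT from 83.8 to 456 CPM (median 324). Apart from S2-06, the FS lay below all PNST, and only the PWT S2-03 (83.8 CPM) shared their range. The means fell from PNST (353 ± 88.2 CPM) to PWT (299 ± 132) to FS (138 ± 117), and PNST and PWT did not differ past the threshold (log2 fold change 0.24, 95% interval −0.59 to 1.07). In FS against both others the log2 fold change was −1.23 (SE 0.45, adjusted p = 0.0914 with edgeR; DESeq2 gave −1.20 with adjusted p = 0.0373, and DESeq2 called 12% of all genes). The call was made in edgeR without S2-06 (−1.98, adjusted p = 0.0130), without S2-03 (−1.33, adjusted p = 0.0389) and among the S1 tumors (−1.95, adjusted p = 0.0272), and by histological diagnosis the log2 fold change was −0.63 (adjusted p = 0.549). Against PNST *FGFR2* was not called (−1.34, adjusted p = 0.108) except with a term for the prefix (−1.64, adjusted p = 0.0446), within S1 (−2.04, adjusted p = 0.0383) and without S2-06 (−2.10, adjusted p = 0.0196). Without S2-06 it was also called against PWT (−1.86, adjusted p = 0.0192). *FGFR2* and *ERBB2* thus depended on the same FS in opposite ways, since S2-06 was the highest FS for both.

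*FGFR1* was highest on average in PNST (547 ± 283 CPM), then FS (348 ± 187) and PWT (275 ± 104). The PNST spread from 159 CPM (S1-09) to 854 CPM (S1-05) and 3 of 6 (692 to 854 CPM) lay above every FS (117 to 543 CPM) and every PWT (101 to 379.5 CPM). S1-04 and S1-05, the pair with identical labels, had the 2 highest values (789 and 854 CPM). In PNST against both others the log2 fold change was 0.85 (SE 0.38, adjusted p = 0.295), and among the S1 tumors 0.47 (adjusted p = 0.738). Against PWT alone it was 0.99 (SE 0.43, adjusted p = 0.217). Neither passed the threshold.

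*FGFR3* was measured on few reads, 0 to 50 per tumor. The FS had 16.5 (S1-02), 16.2 (S1-11), 28.9 (S1-12) and 5.57 CPM (S2-06), the PNST 1.69 to 15.5 CPM (median 4.27) and the PWT 0 to 12.7 CPM (median 2.69). The PWT S2-04 had 0 reads, where 3 reads would have been 4.13 CPM. *FGFR3* was not called in any comparison (FS against both others 1.44, SE 0.62, adjusted p = 0.146; FS against PWT 1.81, SE 0.73, adjusted p = 0.110). Its high values fell mostly in the tumors with high keratinocyte markers. The 5 tumors with high keratinocyte markers had 12.7 to 28.9 CPM of *FGFR3*, and of the other 11 only S1-11 (16.2 CPM) was above 5.67 CPM. S1-11 had a keratinocyte sum of 75.5 CPM, most of it *DSC3* (52.8 CPM). With a term for the keratinocyte marker level the FS log2 fold change was 1.27 (adjusted p = 0.0583), and without those 5 tumors *FGFR3* no longer passed the filter on low counts. Without S2-03 the comparison of FS with PWT was called (2.55, adjusted p = 0.0305).

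**Figure D4:**
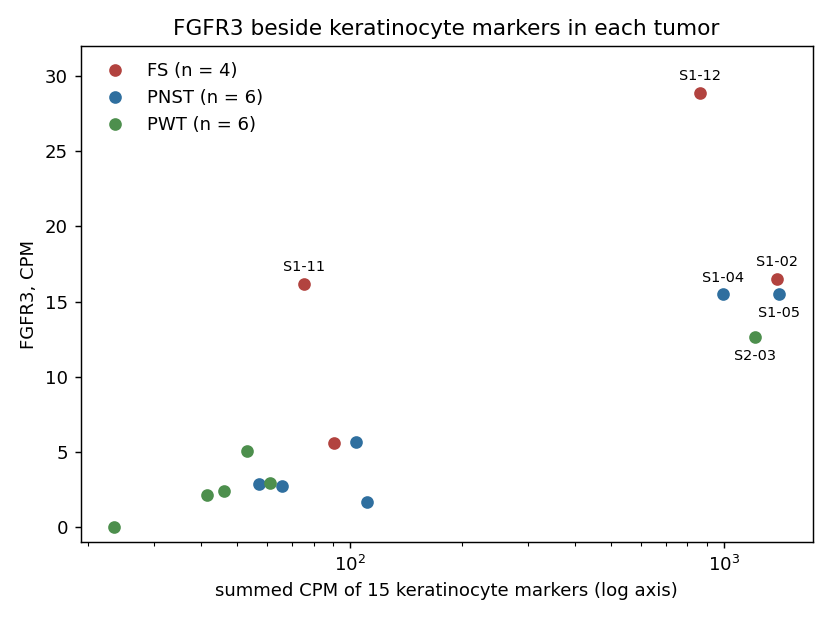
*FGFR3* in CPM against the summed CPM of 15 keratinocyte markers (log axis) in the 16 tumors, colored by type. The 5 tumors at 865 CPM or more on the horizontal axis have 12.7 to 28.9 CPM of *FGFR3*, and of the rest only S1-11 is above 5.67 CPM.

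*FGF2* and *FGF7*, the FGF ligands, were led by single tumors rather than by types. For *FGF2* the FS had 34.4 (S1-02), 46.9 (S1-11), 14.4 (S1-12) and 14.9 CPM (S2-06), the PNST 5.75 to 19.7 CPM (median 12.1) and the PWT 4.32 to 67.6 CPM (median 13.9). The PWT maximum was S2-03, and the next PWT had 14.5 CPM. *FGF2* was not called in any comparison (FS against both others 0.76, SE 0.52, adjusted p = 0.386), but without S2-03 it was called in that comparison (1.25, adjusted p = 0.0256). For *FGF7* S1-11 had 72.8 CPM and the other 3 FS 3.61 to 7.02 CPM. S1-11 also had the highest sums of 10 skeletal muscle markers (1105 CPM, 4.65 to 6.32 CPM in the other 3 FS) and of fibroblast markers (98945 CPM). The part of these tissues in its values was not tested. Among PWT S2-03 had 110 CPM (109.504) and the others 1.38 to 22.9 CPM, and PNST ran from 2.76 to 30.9 CPM. *FGF7* log2 fold changes had standard errors of 0.73 to 0.92 and were not called in any comparison, with adjusted p of at least 0.489.

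The 3 tumors highest in *FGF2* (S2-03, S1-11 and S1-02) were also the 3 lowest in *FGFR2*, all under 90 CPM, although S2-03 was a PWT. Over the 16 tumors the log2 CPM of *FGF2* and *FGFR2* had a Pearson r of −0.76 and a Spearman rho of −0.69, the most negative r of the 45 pairs of these genes, while by Spearman's rho *FGFR2* and *FGFR3* were more opposed (−0.78). The points share library depth and tissue composition, and 2 of the 3 tumors were among those with high keratinocyte markers. The CPM of *FGFR2* over that of *FGFR1* had a median of 0.271 in FS (0.191 to 1.06), 0.748 in PNST and 1.09 in PWT.

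*AXL*, a TAM receptor found on macrophages and on many mesenchymal cells, was lowest in PWT on average. FS had 61.8, 68.5, 86.7 and 51.1 CPM, a narrow range. PWT ran from 11.1 to 53.7 CPM (median 24.1), so that only S2-04 was above the lowest FS. PNST were spread over both ranges, with S1-04, S2-07 and S1-09 at 113, 111 and 72.2 CPM and S1-03, S1-10 and S1-05 at 15.5, 15.4 and 24.7 CPM. The 2 PNST with the least *EGFR*, S2-07 and S1-09, were among the 3 with high *AXL*, and the CPM of *AXL* over that of *EGFR* ran from 0.112 (S1-03) to 7.18 (S2-07) within PNST. The means were 67.0 ± 14.9 CPM in FS, 58.6 ± 46.4 in PNST and 27.0 ± 16.3 in PWT. No comparison was called: PWT against both others gave −1.22 (SE 0.47, adjusted p = 0.138), FS against PWT 1.34 (SE 0.56, adjusted p = 0.125) and PNST against PWT 1.15 (SE 0.51, adjusted p = 0.227), with 0.169% of all genes called in the last. FS and PNST, neighbours in the order, did not differ past the threshold (0.19, 95% interval −0.90 to 1.28).

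Of 118 other genes of these pathways, in 8 lists, 117 were in the table and 80 passed the filter. Most ligands did not: 5 of 20 other FGF ligands and 2 of 11 EGF family ligands passed, and *EGF*, *TGFA*, *AREG*, *EREG* and *HBEGF* were not tested. *EGF*, singled out after its values were seen, reached 120 CPM in the FS S1-02 and was at most 2.75 CPM in PWT and 1.15 CPM in PNST. Fewer than 4 tumors reached 10 counts of it. S1-02 was also high in keratinocyte (1386 CPM) and macrophage markers (1453 CPM), so this value of 1 tumor does not describe FS as a type. In FS against both others 11 of the 80 genes were called higher and 1 lower (15%, beside the 9.46% over all genes), and their median log2 fold change was 0.42. In PNST 0 were called, and in PWT 2 of 80 (2.5%, near the 2.12% over all genes) were called, both lower, *LRIG1* (−1.42, adjusted p = 0.0404) and *PLCG1* (−1.28, adjusted p = 0.0350). Both PWT calls were lost with a term for the prefix. That of *LRIG1* was also lost without S1-02, S1-03, S1-04, S1-05 or any PWT but S2-09, and that of *PLCG1* without S1-11 or any PWT but S2-08. In FS against PNST 8 of the 80 were called higher and 3 lower (*ADAM17*, *FLRT2* and *RHBDF1*), 13.8% beside 7.13% of all genes. In FS against PWT 12 were higher and 3 lower (*ADAM17*, *CBLB* and *GAB2*), 18.8% beside 11.2%. With 1 tumor left out, the calls of *FLRT2*, *RHBDF1*, *CBLB* and *GAB2* were kept in 10, 4, 16 and 8 of 16 fits.

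**Figure D5:**
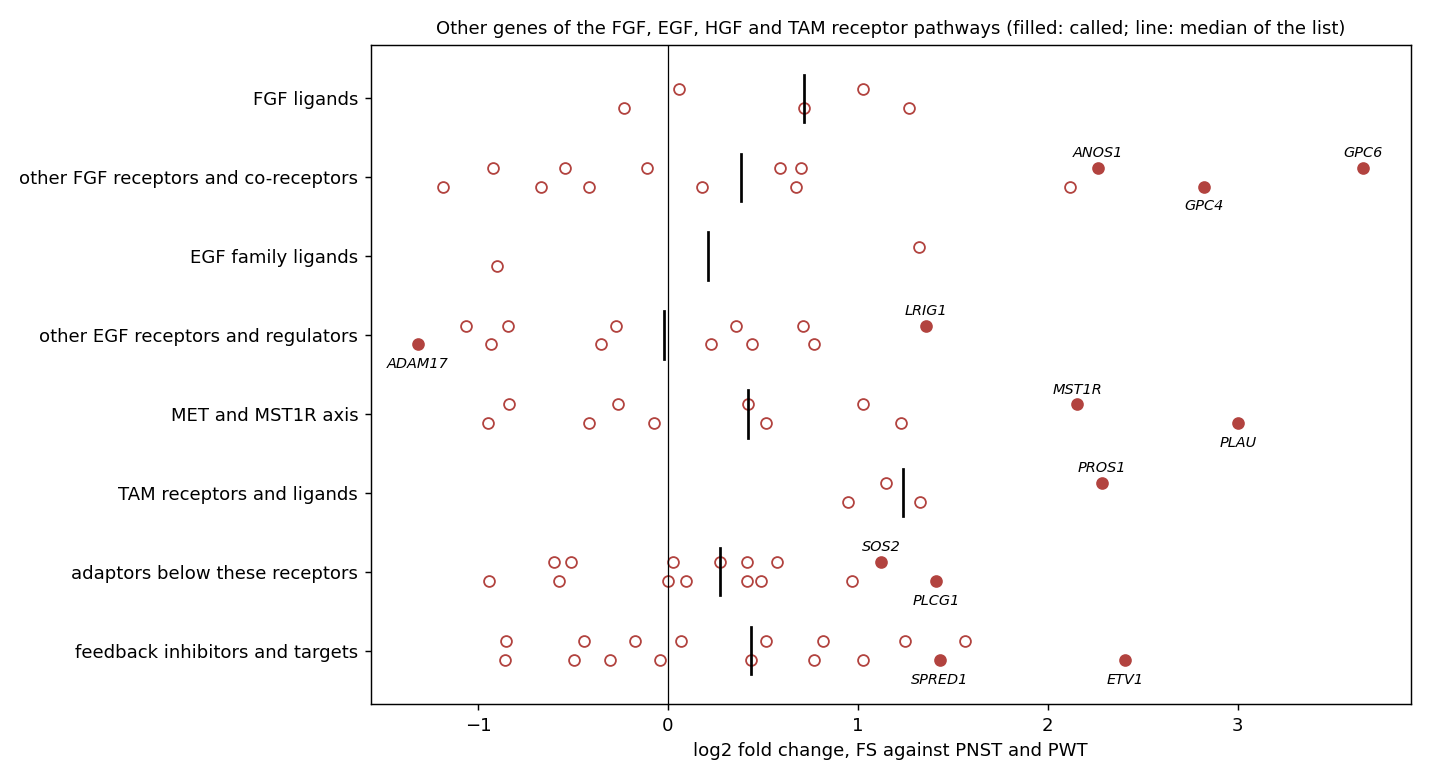
Log2 fold change in FS against PNST and PWT (horizontal axis) of the 80 other pathway genes that passed the filter, by list (edgeR). Filled and named points were called, and the vertical line is the median of each list. *GPC6* (3.66) and *PLAU* (3.00) lie farthest right, and *ADAM17* (−1.31) is the gene called lower.

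Among FGF co-receptors, 3 of 14 were called higher in FS, as were 5.78% of all genes. *GPC4*, a glypican that carries heparan sulfate, had 37.2, 42.6, 209 and 28.3 CPM in FS (S1-02, S1-11, S1-12 and S2-06). The other 12 tumors had at most 22.0 CPM, so its groups did not overlap (2.82, SE 0.47, adjusted p = 0.00117), like 3.21% of all genes. By histological diagnosis the groups overlapped, since S2-08 (11.3 CPM) was an FS there. *GPC6*, another glypican, had 59.0, 22.1, 1.81 and 114 CPM in FS and at most 12.9 CPM elsewhere (3.66, SE 0.71, adjusted p = 0.00305). S1-12, the highest FS for *GPC4*, had 1 read of *GPC6*. The third, *ANOS1*, a heparan sulfate binding matrix protein that modulates FGF receptor signalling, had 280 CPM in S1-11 and fell to a log2 fold change of 0.25 (adjusted p = 0.821) without that tumor. *FGFR4* and the decoy receptor *FGFRL1* were not called (−1.18, adjusted p = 0.239; −0.41, adjusted p = 0.728). None of the 5 other FGF ligands tested was called.

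Among EGF receptors and regulators, *LRIG1*, which promotes degradation of EGF receptors, was higher in FS (1.36, SE 0.35, adjusted p = 0.0194), with 172, 61.5, 139 and 177 CPM against 45.6 to 106 CPM in PNST and 21.4 to 67.0 CPM in PWT. *ADAM17*, the protease that sheds EGF family ligands from the cell surface, was lower in FS (−1.31, SE 0.28, adjusted p = 0.00574). It had 75.2, 69.6, 45.1 and 98.0 CPM in the 4 FS and at least 105 CPM in every other tumor, without overlap. By histological diagnosis the groups overlapped, since S2-08 (184 CPM) was an FS there. *ERBB3*, a partner of *ERBB2*, was not called (0.23, adjusted p = 0.841). The *LRIG1* call was lost without S1-02 (1.23, adjusted p = 0.0605) or S2-06 (1.22, adjusted p = 0.0646), and that of *ADAM17* was kept with each of the 16 tumors left out.

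On the *MET* side, *MST1R*, the sister receptor of *MET* that binds the ligand encoded by *MST1*, was called higher in FS at low levels. It had 10.9, 29.7, 7.22 and 1.86 CPM there, 0.844 to 7.76 CPM in PNST and 0 to 3.24 CPM in PWT (2.16, SE 0.64, adjusted p = 0.0361), and it was not called without S1-10, S2-07 or S2-09 (adjusted p from 0.0511 to 0.0514). Without S1-02, S1-04, S1-09 or S1-11 it did not pass the filter on low counts, so the call was also absent without either of its 2 highest FS. *PLAU*, the urokinase protease, had 11.9, 18.9, 1.81 and 85.9 CPM in FS and at most 9.25 CPM elsewhere (3.00, SE 0.62, adjusted p = 0.00452). Without S2-06 *PLAU* was not called (1.61, adjusted p = 0.127). The HGF activation inhibitor *SPINT2* (−0.07) and the *MET* co-receptor *CD44* (0.52) were not called.

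In the TAM group, all 4 other genes passed the filter and *PROS1*, the protein S ligand of *TYRO3* and *MERTK*, was called higher in FS, with 27.0, 23.7, 12.6 and 27.9 CPM there, 0.895 to 10.4 CPM in PNST and 0 to 17.9 CPM in PWT, where S2-04 lay above the FS S1-12 (2.28, SE 0.64, adjusted p = 0.0285). The call was lost without S1-02, S1-11 or S2-06 (2.18 to 2.26, adjusted p from 0.0653 to 0.0697). In FS against PWT, *GAS6*, the ligand of *AXL*, and *TYRO3* were called higher. *GAS6* had 156, 171, 88.5 and 31.1 CPM in FS and 10.3 to 56.5 CPM in PWT (2.08, SE 0.49, adjusted p = 0.0120), and *TYRO3* 11.1 to 27.1 CPM against 2.96 to 9.71 CPM (1.54, SE 0.39, adjusted p = 0.0172). Both calls were lost with a term for the prefix (1.57, adjusted p = 0.124; 1.09, adjusted p = 0.177), and that of *TYRO3* without S1-11 (1.35, adjusted p = 0.0669). PWT thus had the lowest mean of *AXL*, *GAS6* and *TYRO3*, although *AXL* itself was not called. The mean of *PROS1* was instead lowest in PNST (4.61 CPM, against 5.48 CPM in PWT). *MERTK*, the remaining gene of the group, was not called in any comparison.

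Below the receptors, 2 of 15 adaptors and 2 of 17 feedback inhibitors and targets were called higher in FS (13.3% and 11.8%, beside 5.78% of all genes). *PLCG1*, the phospholipase recruited by FGF and EGF receptors, had 121, 167, 204 and 147 CPM in FS, 55.8 to 95.8 CPM in PNST and 27.3 to 63.7 CPM in PWT (1.41, SE 0.26, adjusted p = 0.00233). *SPRED1*, an inhibitor of the RAS-MAPK route, had 116, 89.5, 280 and 110 CPM in FS and at most 86.7 CPM elsewhere (1.43, SE 0.29, adjusted p = 0.00387). Both had no overlap between FS and the rest by molecular identity. S2-08, an FS by histological diagnosis, had 63.7 CPM of *PLCG1* and 38.3 CPM of *SPRED1*, so by diagnosis both overlapped. *PLCG1* was called with each tumor left out, and *SPRED1* fell below the fold threshold without S1-12 (0.95, adjusted p = 0.0328). *SOS2*, an exchange factor for RAS, was also called (1.12, adjusted p = 0.0278), but not without S1-02, S1-12 or S2-06. *ETV1*, an ETS transcription factor, had 129 CPM in S1-02, the FS with the most *MET*, and 5.42 to 25.9 CPM in the other FS (2.41, adjusted p = 0.0206), and without S1-02 it was not called (0.94, adjusted p = 0.425). The early response genes *EGR1*, *FOS* and *DUSP6* were not called (−0.31, −0.49 and −0.44).

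Of all genes tested, those whose log2 CPM over the 16 tumors was most like that of *ERBB2* were *AGO2* (Pearson r 0.91), *NUP188* (0.91) and *FOXO6* (0.88). For *MET* they were *NAGLU* (0.91), *BEND7* (0.89) and *GREM1* (0.88). These values describe likeness over tumors that differ in type, depth and tissue composition.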

How the data were processed

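RNA from 16 formalin-fixed canine tumors was depleted of ribosomal RNA and sequenced by the authors on an Ion Proton instrument. The authors aligned reads with STAR2 to the canine build ROS-canfam-01 and deposited raw counts per gene from HTSeq, without normalization; versions and strand setting are not given in the sources used here. Of 34 count columns, 0 could not be mapped to a tumor. The 3 runs of each S1 tumor were summed, so that each tumor was 1 sample, and the unassigned read categories were left out of totals; 22.9% to 30.6% of listed reads fell on genes.

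Here genes that reached 10 counts in 4 or more tumors were kept (15408 of 41818), scaled with TMM and tested with edgeR 4.0.16 (quasi-likelihood; limma 3.58.1, R 4.3.3), each type against both others and in pairs; p-values were adjusted by Benjamini-Hochberg over all genes. CPM are counts divided by the TMM-scaled total. DESeq2 1.42.0, other scalings and filters, histological groups, prefix or keratinocyte terms and leaving out tumors were alternatives. The tests were tried on simulated data. Exact Poisson 95% intervals and floors of 3 counts cover counting error only. All 10 genes are named; of the pathway lists, those called in any comparison may be named, others are given as examples chosen after their values were seen; likeness is the 3 highest Pearson r of log2 CPM (prior count 2). Members and lists were chosen with earlier results of these data known. Breed, body site and grade varied and were not modelled. All 10 symbols matched RefSeq's canine table, whose build differs, so no coordinates are given.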

Additional observations from a re-analysis of the deposited data

Results flagged for a closer look

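In 4 of the 30 sets of tumors examined (10 genes in 3 types), a single tumor lay farther from its neighbour than Dixon's 95% limit allows. Chance alone marks about 1 set in 20, but only for normally distributed values. CPM are skewed and the sets share tumors, so 4 of 30 cannot be read as an excess. For *FGF2* in PWT it was S2-03 with 67.6 CPM, where the next PWT had 14.5 CPM. For *FGF7* in PWT it was again S2-03 with 109.504 CPM, where the next had 22.9 CPM. For *FGF7* in FS it was S1-11 with 72.8 CPM, where the next had 7.02 CPM. For *ERBB2* in PWT it was S2-08, which was FS by histology, with 52.3 CPM, where the next had 29.6 CPM.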

How the results depend on the processing

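No paired analysis was possible because the labels carry no replicate numbers that tie tumors of different types together. Over the alternatives, 22 of 1473 log2 fold changes of the 10 genes lost a call, 14 gained one and 4 reversed. The other 1433 stayed on their side of the threshold, but 40 of these changed sign. Those 40 started within 1 SE of 0 and were called in neither fit, and some moved far. *FGF7* in FS against both others (0.15, SE 0.83) ran from −1.75 to 1.61. The 4 reversed values started beyond 1 SE of 0, all in PNST against PWT. There *FGF2* (−0.81, SE 0.52) became 0.20 without the 5 tumors with high keratinocyte markers and 0.10 without S2-03. *FGF7* (−1.06, SE 0.82) became 0.45 and 0.27 in the same 2 fits. For *FGF2* and *FGF7* there, leaving out a tumor gave −1.03 to 0.10 and −1.46 to 0.27. Of the 10 genes, 2 were called in FS against both others, and 1 (*ERBB2*) by histology, with the keratinocyte term or without those 5 tumors. Among S1 tumors neither *ERBB2* nor *MET* was called there, and *FGFR2* was called instead, lower in FS. In FS against PNST 1 was called (*MET*), 2 by DESeq2, and 0 by histology or with S1-04 and S1-05 as 1 sample. With the prefix term or in S1, *FGFR2* was called there in place of *MET*. In FS against PWT 1 was called, and 0 by histology. Leaving out a tumor gave 1 to 4, 0 to 1 and 1 to 2 in these comparisons and 0 in the others. Of the 80 pathway genes, FS against both others had 12 (2 by histology), PWT against both others 2 (8 by DESeq2; 1 with S1-04 and S1-05 as 1 sample; 0 by histology, with the prefix or keratinocyte term, among S2 tumors or without those 5 tumors), FS against PNST 11 (0 by histology, 3 in S1, 6 without those 5), FS against PWT 15 (0 by histology, 8 with the prefix term) and PNST against PWT 0 (2 by DESeq2). Leaving out a tumor gave 9 to 15, 0 to 3, 5 to 12, 10 to 18 and 0 to 1. The causes of these changes were not tested. In the main fits, and in the same order, the shares of the 80 were 15%, 2.5%, 13.8%, 18.8% and 0%. Of all genes, 9.46%, 2.12%, 7.13%, 11.2% and 0.169% were called. DESeq2 called 5.84% of all genes for PWT against both others and 4.02% for PNST against PWT. Over all genes, FS against both others had 1457 calls and 205 by histology. *FGFR3*, *MET* in S1-12 and *HGF* rest on few reads, so small differences were not detectable there.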

Other observations

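Of the 3 genes on each side of *ERBB2* and of *MET* in the RefSeq annotation, looked up after the receptor values were seen, none was above its range in the other 15 tumors in the tumor with the most of the receptor. In S2-06, which had 154 CPM of *ERBB2*, *GRB7* had 0 CPM (0 to 3.45 CPM elsewhere), *MIEN1* was at 17.2 CPM (7.51 to 32.4 CPM in the other 15 tumors) and *PGAP3* at 2.79 CPM (1.08 to 6.77 CPM). In S1-02, which had 135 CPM of *MET*, *CAV1* was at 154 CPM (138 to 508 CPM elsewhere) and *CAPZA2* at 88.5 CPM (35.6 to 126 CPM elsewhere). *NUDT6*, known in mammals to overlap *FGF2* on the opposite strand, had 2.77 CPM in S2-03 (at most 2.21 CPM elsewhere), against 67.6 CPM of *FGF2*.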
